A study of Homo sapiens with 6 samples.

Results

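The 9 genes described here mark the megakaryocyte lineage, which gives rise to platelets. They are ITGA2B, ITGB3, GP9, GP1BA, GP1BB, PF4, PPBP, VWF and FLI1, taken by symbol from deposited tables of 26485 genes (whole-number counts) and 28069 genes (estimated counts, TPM and FPKM). All 9 symbols are in both tables. The libraries are RNA-seq of K562, a human chronic myeloid leukaemia line that can be driven towards either erythroid or megakaryocytic cells in culture. A group of 2 libraries carried the control guide sgNeg2 and is labelled WT. The groups sgRNA#1 and sgRNA#2, with 2 libraries each, carried different guides against the zinc-finger factor ZNF410 and are labelled ZNF410 KO. The stated question was what ZNF410 does to gene expression. Each group holds a replicate 1 and a replicate 2, and the labels do not say what the number stands for, nor whether a knockout line is a clone or a pool. The p-values below therefore measure the spread between these libraries, which may be technical.

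Megakaryocytes and red cells share a progenitor and several transcription factors, among them GATA1, TAL1 and NFE2. Erythroid identity is associated with KLF1 and megakaryocyte identity with the ETS-family factor FLI1, which binds the promoters of many platelet genes. On the platelet surface, integrin αIIbβ3 (ITGA2B and ITGB3) binds fibrinogen, and the GPIb-IX complex (GP1BA, GP1BB and GP9) binds von Willebrand factor (VWF). PF4 and PPBP are chemokines that platelets store in alpha granules.

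Gene counts summed to 8788816 to 9537470 per library in the whole-number table and to 17228254 to 18689560 in the estimated table. ZNF410 had 331 and 322 whole-number counts in the control libraries and 157 to 234 in the 4 knockout libraries. With the replicate number as a block, its log2 difference was -0.83 (edgeR adjusted p = 0.00226), and that of CHD4, a known direct target of ZNF410, was -1.04 (adjusted p = 1.38e-08). Of 46 erythroid genes, 42 were at 1 FPKM (a level corrected for gene length and library size) or more in every library. By replicate number the libraries stood apart: 45.0% of 12282 tested genes differed between replicate 2 and replicate 1, with the group as a term, at an edgeR quasi-likelihood p adjusted by the Benjamini-Hochberg method under 0.05. That threshold is the meaning of "called" below.

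Of the 9 genes, only GP1BB was at 1 FPKM or more in all 6 libraries, ITGA2B crossed that level, and the other 7 lay below 1 FPKM in every library. Among 76 other genes of megakaryocytes and platelets, 42 were at 1 FPKM or more in all libraries and 28 below it in all. Factors shared with red cells were among the higher ones. GATA1, the lineage factor common to both, ranged from 184.53 to 222.81 FPKM, and NFE2, needed for platelet release, from 136.48 to 182.25 FPKM. The platelet surface genes CLEC1B, SELP, TREML1 and P2RY12 had no count in any library.

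**Figure D1:**
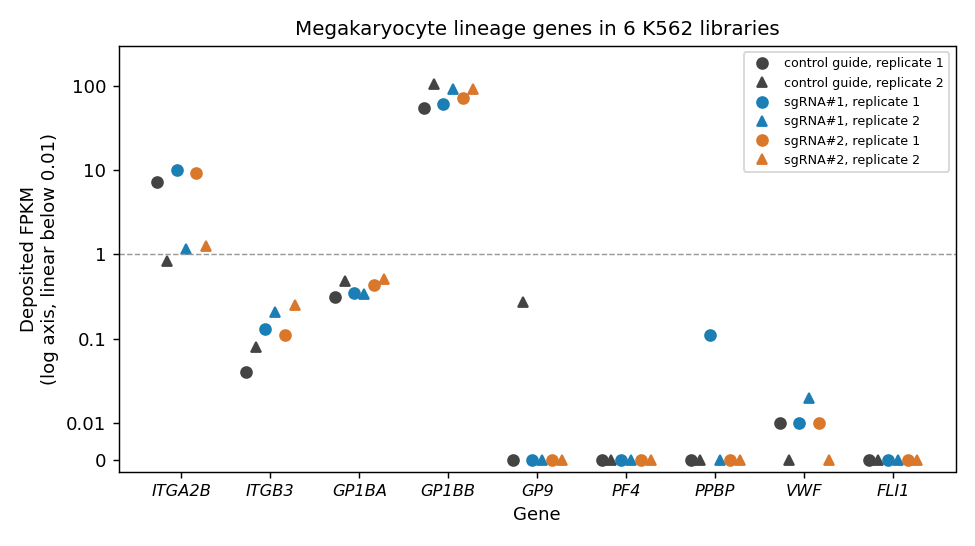
Deposited FPKM (log axis, linear below 0.01) of the 9 genes in each library. Colour gives the guide and shape the replicate number. The dashed line is at 1 FPKM. ITGA2B ranges from 0.84 to 1.25 FPKM in replicate 2 and from 7.18 to 10.16 FPKM in replicate 1. GP1BB lies above 50 FPKM throughout.

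FLI1 had no read in either table in any library, and the same held for ERG, a related ETS factor of megakaryocytes. A count of 0 over the 55271522 gene counts of the 6 libraries allows up to 0.0543 CPM (counts scaled to library size) with the floor set at 3 counts over all libraries, and covers counting error only. By contrast ETS1, another ETS factor, ranged from 34 to 155 whole-number counts. FLI1 lies at chr11:128685132-128813267 on the plus strand (RefSeq, GRCh38.p14).

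The alpha-granule genes were at or near 0. PF4 (chr4:73980811-73982124, minus strand) had no read in either table. PPBP (chr4:73986439-73988190, minus strand) had 1 whole-number count in each sgRNA#1 library and 0 in the other 4. VWF (chr12:5948877-6124670, minus strand), the ligand carried in these granules, had 0 whole-number counts, and its estimated counts ranged from 0 to 3 per library. None of these genes could be tested for a difference at this depth.

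Of the GPIb-IX complex, only GP1BA had reads in the whole-number table. GP9 (chr3:129054845-129062406, plus strand), its smallest subunit, had 0 whole-number counts in all 6 libraries, and its only estimated reads were 3 in control replicate 2. GP1BA (chr17:4932277-4935023, plus strand), the subunit that binds von Willebrand factor, had 17 and 23 whole-number counts in control replicates 1 and 2, 15 and 11 with sgRNA#1, and 18 and 25 with sgRNA#2. Scaled to library size, these whole-number counts ranged from 1.15 to 2.72 CPM. In the estimated counts the lowest value was in control replicate 1, at 0.70 CPM, beside 0.78 and 0.75 CPM with sgRNA#1. In FPKM, at 0.31 to 0.51, the groups overlapped, and in neither unit did the replicate number separate the libraries. Of its 2501 annotated exon bases, 97 overlap the antisense gene CHRNE, and the strand setting of the counting is not given in the sources used here.

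GP1BB (chr22:19723539-19724771, plus strand), the beta subunit, gave opposite readings in the deposited tables. It had 0 whole-number counts in all 6 libraries. Its estimated counts were 618.66 and 1307.02 in control replicates 1 and 2, 735.66 and 1146.11 with sgRNA#1, and 882.37 and 1077.83 with sgRNA#2, or 54.69 to 105.9 FPKM. All 1553 of its exon bases in GENCODE v29 lie also in exons of the read-through gene SEPT5-GP1BB, and 1006 of them in exons of its upstream neighbour SEPT5, which encodes a septin. The stretch below, the first 120 coding bases of GP1BB (chr22:19723570-19723579 joined to chr22:19723854-19723963, GRCh38), shows the overlap, since a read within it matches all 3 transcripts: it is present, letter for letter, in the GP1BB transcript and in both annotated SEPT5-GP1BB transcripts. Capitals mark the 10 bases from exon 1, which include the start codon.
GP1BB, shared coding stretch: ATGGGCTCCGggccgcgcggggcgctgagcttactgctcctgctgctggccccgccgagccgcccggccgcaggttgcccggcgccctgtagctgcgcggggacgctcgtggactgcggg

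In the estimated table all 3 overlapping genes were higher in replicate 2 than in replicate 1 of each group. SEPT5-GP1BB had 497.82 to 1253.5 estimated counts and SEPT5 had 1287.1 to 1836.71, while in the whole-number table they had at most 7 and 1 counts. GP1BB took 25.6% to 30.6% of the estimated counts summed over the 3 genes in each library. How much of this signal belongs to GP1BB itself cannot be told apart in these tables, so its level is uncertain here.

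**Figure D2:**
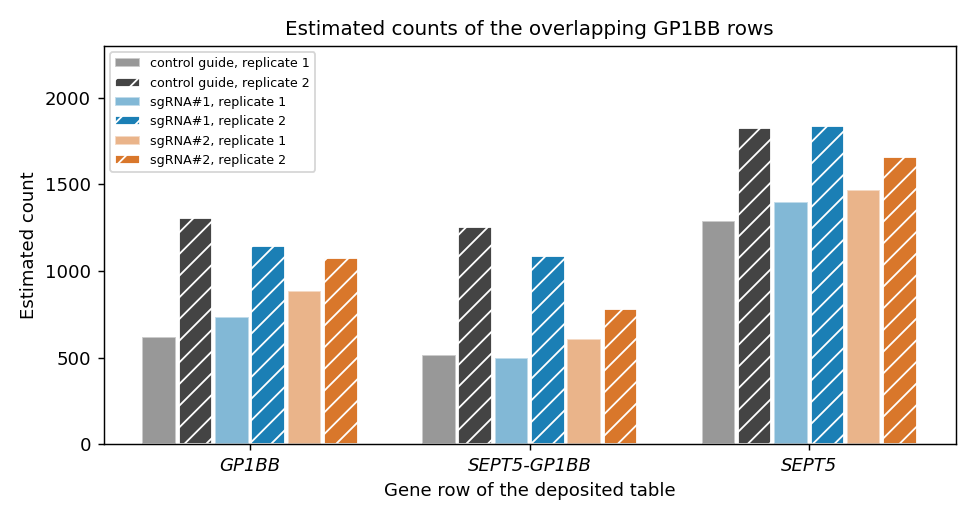
Estimated counts (linear axis from 0) of GP1BB and the genes that share its exons, per library. Colour gives the guide, and hatched bars are replicate 2. In each group and gene the replicate 2 bar is the higher one.

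The integrin subunits differed from each other in level. ITGA2B (chr17:44372181-44389649, minus strand), the αIIb subunit known as CD41, shares no exon base with another gene in GENCODE v29. ITGB3 (chr17:47253827-47313743, plus strand), the β3 subunit, had 3 and 6 whole-number counts in control replicates 1 and 2, 6 and 19 with sgRNA#1, and 4 and 9 with sgRNA#2. Its level was 0.04 to 0.25 FPKM against 0.84 to 10.16 FPKM for ITGA2B, and 2266 of its 4394 exon bases lie also in the annotated gene AC068234.1.

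The promoter-side sequences of ITGA2B, which had the largest difference by replicate number among the 9 genes, and GP9, a gene at 0, are shown to place both readouts beside their flanking DNA. They are the 250 bases before the transcript start used in the RefSeq promoter table (GRCh38.p14, 5′ to 3′ on the gene's strand), chr17:44389650-44389899 for ITGA2B and chr3:129060529-129060778 for GP9. For GP9 that start lies inside the gene interval given above, which begins further upstream. Of the 9 genes, 4 were matched in the table of promoter sequences. Capitals mark the 4-base cores of GATA-factor motifs (GATA, or TATC on the other strand) and ETS-factor motifs (GGAA, or TTCC on the other strand). These motifs do not overlap each other.
ITGA2B: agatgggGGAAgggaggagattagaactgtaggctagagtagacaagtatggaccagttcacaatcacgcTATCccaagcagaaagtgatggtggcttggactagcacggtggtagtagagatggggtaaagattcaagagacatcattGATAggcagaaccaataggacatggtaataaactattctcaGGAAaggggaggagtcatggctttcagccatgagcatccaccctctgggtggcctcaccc
GP9: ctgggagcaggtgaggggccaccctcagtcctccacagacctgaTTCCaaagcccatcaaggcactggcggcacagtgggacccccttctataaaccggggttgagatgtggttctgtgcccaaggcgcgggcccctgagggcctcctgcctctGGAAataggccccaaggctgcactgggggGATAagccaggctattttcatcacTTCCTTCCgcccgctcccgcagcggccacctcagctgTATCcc

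The ITGA2B window holds 2 GATA cores and 2 ETS cores, and the GP9 window holds 2 and 4. Such short cores are common: 45.6% of 35116 windows of this length hold a GATA core, 92.7% an ETS core and 43.0% both. The start of the full-length coding transcript ITGA2B-201 in GENCODE v29 lies 144 bases downstream of the RefSeq start, so the bases just before that start are not in the window shown. With the 6-base forms that were searched first, the ITGA2B window had 0 GATA and 0 ETS matches, and the GP9 window 0 and 2. Of the 35116 windows, 14.6% held a 6-base GATA match and 40.8% a 6-base ETS match. A match is a description of the letters only.

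ITGA2B was lower in replicate 2 than in replicate 1 in all 3 groups. Its whole-number counts were 249 and 28 in control replicates 1 and 2, 328 and 44 with sgRNA#1, and 304 and 56 with sgRNA#2. Of all tested genes, 34.3% were lower in replicate 2 of all 3 groups. Scaled to library size, the ITGA2B count was 9.72-fold lower in replicate 2 of the control (95% counting interval 6.56 to 14.9). It was 7.82-fold lower with sgRNA#1 and 5.40-fold lower with sgRNA#2. The fitted log2 difference was -2.85 (SE 0.158, edgeR adjusted p = 8.83e-09), or 7.21-fold lower, and in the estimated counts it was -3.04 (SE 0.115, adjusted p = 1.11e-09). In bulk RNA, fewer cells with the transcript and less transcript per cell cannot be told apart.

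ITGA2B was the only one of the 2 genes of the lineage set that passed the filter on low counts in the whole-number table to be called, where 23.5% of all tested genes were called lower and 5.57% were called and at least 2-fold lower. GP1BA, the other gene tested, had a log2 difference of 0.14 (SE 0.355, adjusted p = 0.767). In the estimated counts, 4 of the 9 genes were tested and 2 were called, ITGA2B and GP1BB, where 52.6% of all tested genes were called. GP1BB went the other way, with a log2 difference of 0.63 (SE 0.0908, edgeR adjusted p = 8.35e-05). The replicate 2 value was higher in each group, by 0.96 on the log2 scale in the control, 0.59 with sgRNA#1 and 0.35 with sgRNA#2. SEPT5-GP1BB rose by 0.89 (adjusted p = 2.67e-05) and SEPT5 by 0.32 (adjusted p = 0.000274), so the direction is common to all genes that share these exons. ITGB3 did not pass, at 0.95 (SE 0.433, adjusted p = 0.0816), with higher values in replicate 2 of all 3 groups.

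The erythroid list moved in the direction opposite to ITGA2B. Of 46 genes, 44 were tested, 31 were called higher in replicate 2, none was called lower, and 11 were at least 2-fold higher, where 21.6% of all tested genes were called higher and 1.92% at least 2-fold higher. The list's median log2 difference was 0.51, beside -0.00 over all tested genes. In the estimated counts 35 were called higher and 1 lower, AHSP, the alpha-haemoglobin chaperone, at -0.30 (adjusted p = 0.0144). Globin genes had the largest differences. HBD, the delta-globin gene, had 4, 9 and 20 counts in the replicate 1 libraries of the control, sgRNA#1 and sgRNA#2 and 88, 161 and 128 in replicate 2, a log2 difference of 3.48. Embryonic HBE1 rose by 2.47, embryonic HBZ by 2.24 and adult HBB by 1.87. Other red-cell genes called with large differences were the haem enzymes ALAS2 at 1.76 and FECH (2.56-fold higher) and the anion exchanger SLC4A1 at 1.72. The adjusted p of these 7 genes ranged from 1.26e-11 for HBE1 to 3.56e-05 for SLC4A1 in edgeR.

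**Figure D3:**
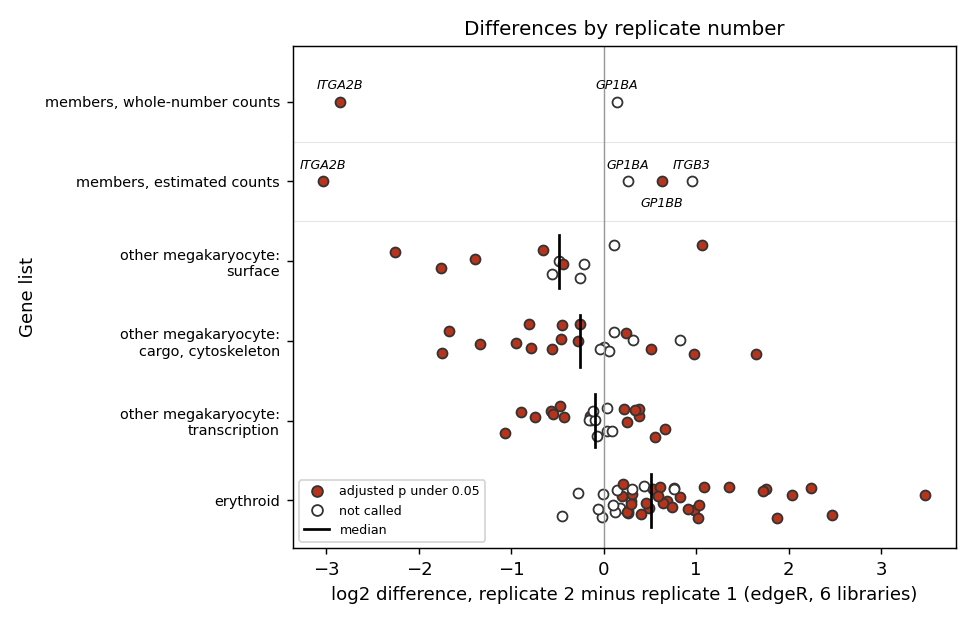
Log2 difference of replicate 2 minus replicate 1, 1 point per tested gene, by gene list. Filled points are called, and the bar is the list's median. The points of ITGA2B are the lowest shown, at -2.85 in the whole-number counts and -3.04 in the estimated counts, while the erythroid median is 0.51.

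The other megakaryocyte genes did not move as a block. Of 76, 55 were tested, 24 were called lower in replicate 2 and 12 higher, with a median log2 difference of -0.16. That is 43.6% lower and 21.8% higher, beside 23.5% and 21.6% of all tested genes. Among surface genes 5 of 11 tested were lower and 1 higher, among cargo and cytoskeleton genes 11 of 21 were lower and 4 higher, and among transcription factors 8 of 23 were lower and 7 higher. The largest falls were in ESAM, an adhesion molecule (log2 difference -2.25, on at most 23 counts per library), F2R, the thrombin receptor PAR1 (-1.76), RAB27B, a granule-trafficking GTPase (-1.75, on at most 17 counts), SPARC, an alpha-granule glycoprotein (-1.68), TBXA2R, the thromboxane receptor (-1.40), and MYL9, a myosin light chain (-1.34). ETS1 fell by 1.07. TUBB1, the platelet β1-tubulin, went the other way, from 112, 181 and 225 counts in the replicate 1 libraries of the control, sgRNA#1 and sgRNA#2 to 463, 621 and 579 in replicate 2, a log2 difference of 1.64 (SE 0.106, edgeR adjusted p = 3.70e-08).

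Of the regulators shared by both lineages, GATA2, a factor of early progenitors, was lower in replicate 2, with a log2 difference of -0.58 (edgeR adjusted p = 2.51e-06), and RUNX1, required for megakaryocyte maturation, with -0.75 (adjusted p = 2.76e-07). NFE2 differed by -0.43 (adjusted p = 8.05e-06) and GATA1 by -0.15 (adjusted p = 0.0184). Others were higher in replicate 2: TAL1 by 0.56 (adjusted p = 1.83e-06), MAFG, a partner of NFE2, by 0.66 (adjusted p = 9.71e-07) and GFI1B, a repressor needed in both lineages, by 0.38 (adjusted p = 0.000110). The erythroid factor KLF1 was higher by 0.25 (adjusted p = 0.00161).

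A few genes of other lineages differed by replicate number too, in the same direction as ITGA2B. The summed level of 12 myeloid genes was 28.2 to 37.9 FPKM in the replicate 1 libraries and 5.65 to 7.48 FPKM in replicate 2. For 6 lymphoid genes the sums were 24.3 to 39.7 FPKM and 5.14 to 7.13 FPKM, and for 6 endothelial genes 0.65 to 1.14 FPKM and 0.2 to 0.3 FPKM. These sums rest on few genes, named here after their values were seen: SPI1 (log2 difference -3.21) and LYZ (-2.34) of the myeloid list, CD3D (-2.53) of the lymphoid list and TIE1 (-1.52) of the endothelial list. They are the only called genes of 3 myeloid, 2 lymphoid and 1 endothelial genes tested. Without them the myeloid sums overlapped, at 1.04 to 1.92 FPKM in replicate 1 and 0.76 to 1.43 FPKM in replicate 2. The lymphoid sums were 0.97 to 1.27 FPKM and 0.36 to 0.51 FPKM, and the endothelial sum was at most 0.03 FPKM in any library. The defining myeloid markers MPO, ELANE and CTSG were listed at 0 FPKM in every library, as were CDH5 and KDR of endothelium. The part of other cells in the ITGA2B difference was not tested.

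The genes whose pattern over the 6 libraries was most like that of ITGA2B, by the root-mean-square difference of centred log2 CPM among the 9966 genes that averaged 50 counts or more, were ARAP3 (0.146), JDP2 (0.202) and CORO1A (0.204). ARAP3 had 191, 228 and 211 counts in the replicate 1 libraries of the control, sgRNA#1 and sgRNA#2, and 26, 30 and 40 in replicate 2. For GP1BA they were HPS3 (0.0959), SEPT7P2 (0.109) and NUDT1 (0.124). HPS3 ranged from 87 to 130 counts per library.

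None of the lineage genes that could be tested, 2 of 9 in the whole-number table and 4 of 9 in the estimated one, was called for a difference by ZNF410 guide or genotype. So few genes can show little where few of all genes are called. This covers knockout against wild type, each guide against the control and sgRNA#2 against sgRNA#1, in both tables, with and without the replicate block, where 0.0% of all genes tested were called without the block. With the block, knockout against wild type called 1.84% of all genes tested in the whole-number table and 3.03% in the estimated one. The corresponding shares were 0.887% and 1.39% for sgRNA#1, 1.38% and 2.26% for sgRNA#2, and 0.0896% and 0.0548% between the guides. Without the block, 284 of 12282 genes were at an unadjusted p under 0.05 in edgeR for knockout against wild type, and DESeq2 called 19. For ITGA2B the log2 difference of knockout from wild type was 0.34 (SE 1.09, edgeR adjusted p = 1.00), and its direction depended on single libraries, from -0.53 without control replicate 2 to 2.74 without control replicate 1. With the block it was 0.42 (SE 0.158, adjusted p = 0.251). In the estimated counts with the block it was 0.45 (SE 0.115, adjusted p = 0.0550), just above the threshold. The spread by replicate number is much larger than this difference.

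Compared within the same replicate number, ITGA2B was higher in the knockout in all 4 pairs. The whole-number log2 differences were 0.33 and 0.64 for sgRNA#1 in replicates 1 and 2, and 0.19 and 1.04 for sgRNA#2. In the estimated counts they were 0.50, 0.47, 0.36 and 0.56 in that order. The 4 pairs share 2 control libraries, and 16.2% of all tested genes were higher in all 4 pairs of the whole-number table. A test of whether the knockout difference changed with the replicate number gave 0.59 in the whole-number counts (SE 0.342, edgeR adjusted p = 0.688). In the estimated counts it gave 0.08 (SE 0.258, edgeR adjusted p = 0.956).

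ITGB3 was also higher in all 4 pairs, on few reads. Its estimated counts were 3 and 7 in control replicates 1 and 2, 11 and 18 with sgRNA#1, and 9 and 20 with sgRNA#2. The fitted log2 difference was 1.49 (SE 0.582, edgeR adjusted p = 1.00) without the block and 1.51 (SE 0.484, adjusted p = 0.132) with it. Without the block it ranged from 1.06 without control replicate 1 to 2.14 without control replicate 2, and unfiltered limma gave 0.15 on the log2(FPKM + 1) scale, which understates the change of low genes. In the estimated counts, 17.0% of all tested genes were higher in all 4 pairs.

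GP1BA differed from the control by -0.23 on the log2 scale (SE 0.412, edgeR adjusted p = 1.00), and the guides lay on either side of the control, at -0.64 (SE 0.450) for sgRNA#1 and 0.09 (SE 0.437) for sgRNA#2. The direction of its knockout difference turned to 0.024 when the estimated counts were fitted, to 0.030 when these were blocked, and to 0.016 in unfiltered limma. In the whole counts without the block it ranged from -0.47 without sgRNA#2 replicate 2 to -0.06 without sgRNA#1 replicate 2. The difference between the guides was 0.73 (SE 0.449, adjusted p = 1.00). GP1BB differed by -0.02 in the estimated counts (SE 0.290, adjusted p = 1.00), and by 0.019 with the block. It ranged from -0.42 without control replicate 1 to 0.54 without control replicate 2. Its replicate 1 pairs were higher in the knockout, by 0.17 with sgRNA#1 and 0.39 with sgRNA#2, and its replicate 2 pairs lower, at -0.19 and -0.21.

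**Figure D4:**
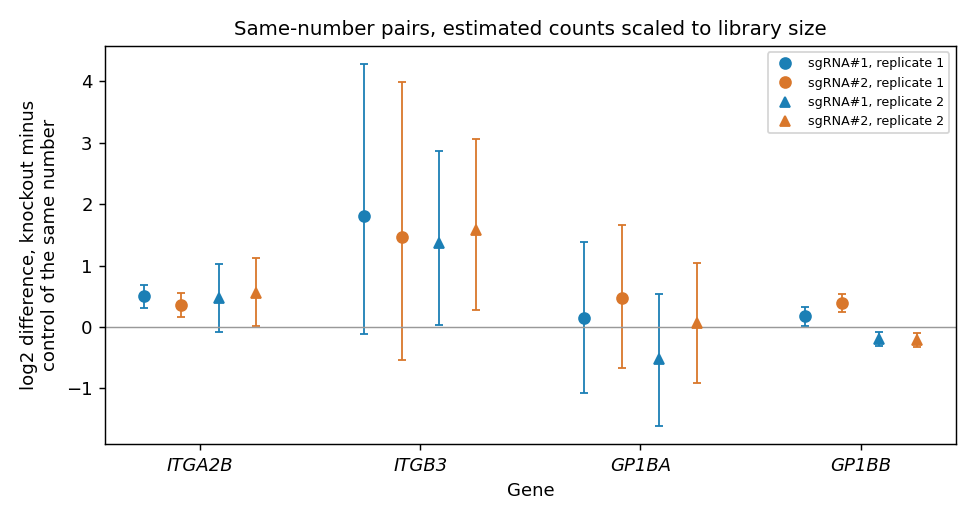
Log2 difference of each knockout library from the control library of the same replicate number, from estimated counts scaled to library size, with 95% counting intervals. All 4 points of ITGA2B and of ITGB3 lie above 0, while those of GP1BB lie above 0 in replicate 1 and below 0 in replicate 2.

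Erythroid genes were called in 1 direction in the knockout, and only with the replicate block in edgeR. Without the block none of 44 tested genes was called by edgeR, and with it 12 were called higher and none lower, where 1.19% of all tested genes were called higher. The list's median was 0.22 with the block, beside 0.00 over all tested genes. Of the 44, 24 were higher in all 4 pairs, where 16.2% of all tested genes were. The largest calls were HBB at 1.40, the carbonic anhydrase CA1 at 1.05, HBE1 at 0.92, HBZ at 0.64, the fetal globin HBG1 at 0.59, the glycophorin GYPB at 0.57, and the erythroid nuclear factor HEMGN at 0.44, with adjusted p from 6.42e-06 for HBE1 to 0.0391 for GYPB. HBG1 and GYPB have near-identical copies, so their counts are uncertain.

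Of the other megakaryocyte genes 55 were tested and none was called without the block. With it 3 were called higher and 2 lower, where 1.19% of all tested genes were called higher and 0.651% lower, and the list's median was 0.06. CLU, the granule chaperone clusterin, had 30 and 18 counts in the control, 69 and 50 with sgRNA#1 and 92 and 46 with sgRNA#2 in replicates 1 and 2, a log2 difference of 1.38 (SE 0.249, edgeR adjusted p = 0.00875). TUBB1 rose by 0.53 (adjusted p = 0.0220) and PTGS1, the cyclooxygenase of platelets, by 0.50 (adjusted p = 0.00160). ETS1 fell by 0.96 (adjusted p = 0.0136) and MYB, a progenitor factor, by 0.28 (adjusted p = 0.0206). Each of these 5 genes moved the same way in all 4 pairs. The calls and the pairs rest on the same libraries, so this is no further support. No surface gene of 11 tested was called, where 1.84% of all tested genes were, so 11 genes can show little. The calls depend on single libraries: without control replicate 1, only 1 of the other megakaryocyte genes was called with the block, and 4 to 7 without any other library, while without sgRNA#1 replicate 2 the erythroid count was 7 and otherwise 9 to 12.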

How the data were processed

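RNA of K562 cells was profiled in 6 libraries, in 3 groups of 2. The submitters' processing notes name Trim Galore, HISAT2 2.2.1, SAMtools 1.9, HTSeq 0.6.1, RSEM 1.3.2, DESeq2 1.36.0 and hg38, with no roles. The deposited whole-number counts per gene carry 5 further rows of reads given to no gene (61.6% to 62.6% of each total), which were left out. The second table holds, per the file headers, the authors' expected counts (estimated counts that need not be whole), TPM and FPKM. The deposited FPKM and TPM were normalized for length and library size by the authors, and TPM entered no test. The strand setting is not given in the sources used here.

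Tests on counts used edgeR 4.0.16 under R 4.3.3 (quasi-likelihood F-test, TMM, filterByExpr by group with a minimum count of 10), over all genes passing, with Benjamini-Hochberg adjustment at 0.05. Expected counts were rounded first. Standard errors are the log2 difference divided by the square root of F. Guides were compared in a fit of 3 group means, knockout in a fit of 4 against 2 libraries, and replicate 2 with replicate 1 with the group as a term. Pair intervals and the floor of 3 counts cover counting error only. The procedure was tested on simulated data. DESeq2 1.42.0 and limma 3.58.1 on log2(FPKM + 1) were alternatives.

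Deviations of same-numbered libraries from their group means correlated at r = 0.811, 0.757 and 0.824 across 9966 genes, so same-numbered libraries were treated as pairs, on the data's evidence and not that of the labels. The biological coefficient of variation was 24.2% without the replicate block and 6.17% with it.

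The genes and lists were chosen with earlier results of these data known. Genes named besides the 9 were GATA1, GATA2, RUNX1, KLF1, ZNF410 and CHD4, up to 8 called genes per list with the largest difference by replicate number and by knockout with the block, and the 3 genes most alike in pattern. Some genes that this rule names are not reported here. CLEC1B, SELP, TREML1, P2RY12, ERG, NFE2, TAL1, MAFG, GFI1B, AHSP, the genes overlapping the 9 and the genes of other lineages were named after their values were seen. The 4-base motif cores were chosen after a search with 6-base forms was seen.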

Additional observations from a re-analysis of the deposited data

Results flagged for a closer look

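GP1BB, in the estimated counts, had knockout differences of opposite sign in the replicate numbers: both knockout libraries of replicate 1 lay above their control and both of replicate 2 below theirs. The mean pair difference of replicate 2 minus that of replicate 1 was -0.49 on the log2 scale. The edgeR test of this difference gave -0.49 (SE 0.133, unadjusted p = 0.00234, adjusted p = 0.249 over 12764 genes), where 14 genes were called. All exon bases of GP1BB are shared with SEPT5-GP1BB, and the part of that overlap in the split was not tested.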

How the results depend on the processing

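No tested lineage gene was called by guide or by knockout under any of the 13 other settings, nor without any 1 library. By replicate number, 2 were called in place of 1 in the estimated counts and in limma on log2(FPKM + 1), with a pseudocount of 0.1 and with no filter, and ITGA2B kept its call throughout (log2 difference -3.10 to -2.24). With the replicate block, knockout calls among other megakaryocyte genes went from 0 to 5 in edgeR, 6 in DESeq2, 9 in the estimated counts and 6 in limma (1 to 7 without 1 library, with 4 in 3 of those fits), and among erythroid genes to 12, 10, 19 and 11 (7 to 12 without 1 library), while DESeq2 without the block called 1. Over all genes tested, the blocked fits called 226 of 12282 in edgeR and 162 of 12282 in DESeq2. They called 387 of 12764 in the estimated counts and 194 of 11817 in limma. DESeq2 without the block called 19 of 12282. The block changed no call of a lineage gene. The knockout difference of ITGA2B turned to -0.53 without control replicate 2, -0.12 without sgRNA#1 replicate 1 and -0.02 without sgRNA#2 replicate 1 (range -0.53 to 2.74), all without the block, and ranged from 0.26 to 0.84 in blocked fits without 1 library. The knockout difference of GP1BA turned to 0.024 in the estimated counts, 0.016 in unfiltered limma, 0.030 in blocked estimated counts and 0.011 without sgRNA#1 replicate 2 with the block, with a range of -0.51 to 0.01 for blocked fits without 1 library. The knockout difference of ITGB3 ranged from 1.06 to 2.14 without 1 library and was 1.02 in unfiltered whole counts and 0.15 in unfiltered limma. The replicate difference of GP1BA ranged from -0.05 to 0.40 without 1 library (-0.043 without sgRNA#2 replicate 1 and -0.048 without its replicate 2). The knockout difference of GP1BB turned to 0.046 in limma with a pseudocount of 0.1, 0.045 in the other limma settings, 0.019 in blocked estimated counts and 0.045 in blocked limma, and ranged from -0.42 to 0.54 without 1 library (0.088 without sgRNA#1 replicate 1, 0.029 without sgRNA#2 replicate 1), in fits added after seeing the data. The cause of these changes was not tested. Low counts limit ITGB3 and GP1BA.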
